A study of Mus musculus with 1528 samples.

Results

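The genes described here code for the subunits of the constitutive proteasome, with its activators and assembly chaperones, in bone marrow-derived macrophages (BMDMs). They are the genes whose symbol is Psma, Psmb, Psmc or Psmd followed by a number, or Psme1 to Psme4, without the immunoproteasome subunits Psmb8 and Psmb9, and with at least 1 fragment in at least 5% of the treatment-labelled wells. 41 genes had such a name and 40 of them passed, of 55421 genes in the table. Psma8 was just inside the limit with 5.58% of wells, and Psmb11 was just outside it with 1.57%. The members fall into 8 genes of the 20S alpha ring, 8 of the 20S beta ring, 9 of the 19S base, 8 of the 19S lid, 3 chaperones that help to build the base (Psmd5, Psmd9 and Psmd10) and 4 activators. The symbol pattern keeps Psmb10, which is known as the third catalytic subunit of the immunoproteasome and not of the constitutive form, and Psma8, known as a testis form of an alpha subunit.

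Single cells were studied by Smart-seq2, a plate method that reads whole transcripts and counts fragments without molecular identifiers. The BMDMs came from the marrow of 2 wild-type C57BL/6 mice, were grown in M-CSF and were given IL4+IL13 (10 ng/ml of each), with TNF (10 ng/ml) or without it; these groups are called IL4+IL13+TNF and IL4+IL13. Live cells were sorted into 4 plates, each with cells of 1 mouse under both treatments, IL4+IL13 in the upper rows and IL4+IL13+TNF in the lower rows. All cells received IL4+IL13, so the comparison is the addition of TNF, and unstimulated cells were not analysed here. Of 1524 wells, 1386 were kept after quality filters, which left 357 (mouse 1) and 333 (mouse 2) IL4+IL13 cells and 347 and 349 TNF cells. The total ranged from 4607 to 6122892 fragments per well before filtering, with a median of 461669. All 8 macrophage markers reached a level of 1 CPM (fragments scaled to a common total), with a summed level of 15497 to 27261 CPM, whereas summed levels of lymphoid, mast cell, fibroblast and erythroid markers stayed below 1 CPM in every sum. Dendritic cell markers summed to 8.45 to 13.6 CPM and neutrophil markers to 0.960 to 5.52 CPM. The mouse, read from a replicate number in the sample titles, is the replicate (n = 2 per treatment). The paper describes 2 independent experiments, and mouse and experiment cannot be told apart. Every level below is the CPM of the fragments summed over the cells of 1 mouse and treatment.

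The proteasome is the main protease of the cytosol and nucleus and degrades proteins tagged with ubiquitin. Its 20S core is a barrel of alpha rings around beta rings that hold the cutting sites, and its 19S cap binds and unfolds substrates through a base with ATPase subunits and a lid that removes ubiquitin. Other activators can replace the cap, and in macrophages exposed to inflammatory signals some beta subunits are replaced by immunoproteasome subunits, which favour peptides for MHC class I. Transcription of the constitutive genes is known to be driven by Nfe2l1, which binds the antioxidant response element in their promoters.

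5 members passed a test of TNF by edgeR when the mouse was taken as a block, a fit that called 3.82% of all genes tested, whereas none passed without the block, and the promoters of these 5 are printed first because these genes carry the main differences below. Each line gives the 250 bases before the RefSeq start of the gene, 5′ to 3′ on the strand of the gene, in build GRCm38.p6 (mm10). Capitals mark the letters of TGACNNNGC, a core of the antioxidant response element, in Psmb5 and Psmb6, and of CCAAT, a box bound by NF-Y, in Psmd10, read on either strand. Psmb5 (gene chr14:54614119-54618022, minus strand, window chr14:54617996-54618245) and Psmb6 (gene chr11:70525367-70527858, plus strand, window chr11:70525107-70525356) code for catalytic beta subunits of the constitutive core. Psmb10 (gene chr8:105935735-105938444, minus strand, window chr8:105938393-105938642) is the immunoproteasome counterpart of another, Psmd10 (gene chrX:140948429-140956728, minus strand, window chrX:140956712-140956961) is a chaperone of the base also known as gankyrin, and Psme2 (gene chr14:55587441-55591113, minus strand, window chr14:55591102-55591351) is a subunit of the PA28 activator. Gene positions are those of the count table. Psme2 has another RefSeq start close by, whose window is not printed, and the bases just after the RefSeq start of Psmb6 were in none of its GENCODE M21 transcripts, so positions counted from it are less sure.
Psmb5: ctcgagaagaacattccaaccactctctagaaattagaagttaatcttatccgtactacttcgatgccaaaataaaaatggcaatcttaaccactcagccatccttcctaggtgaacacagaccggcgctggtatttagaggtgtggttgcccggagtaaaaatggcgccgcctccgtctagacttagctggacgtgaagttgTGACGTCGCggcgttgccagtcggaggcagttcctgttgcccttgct
Psmb6: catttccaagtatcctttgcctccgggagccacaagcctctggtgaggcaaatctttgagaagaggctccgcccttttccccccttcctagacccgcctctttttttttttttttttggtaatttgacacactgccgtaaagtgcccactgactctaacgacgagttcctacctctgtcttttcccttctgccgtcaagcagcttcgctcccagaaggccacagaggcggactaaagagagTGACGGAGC
Psmb10: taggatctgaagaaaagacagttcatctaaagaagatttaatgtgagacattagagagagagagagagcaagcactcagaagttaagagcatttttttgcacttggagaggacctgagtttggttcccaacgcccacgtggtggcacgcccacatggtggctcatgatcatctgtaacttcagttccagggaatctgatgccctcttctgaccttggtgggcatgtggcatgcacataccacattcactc
Psmd10: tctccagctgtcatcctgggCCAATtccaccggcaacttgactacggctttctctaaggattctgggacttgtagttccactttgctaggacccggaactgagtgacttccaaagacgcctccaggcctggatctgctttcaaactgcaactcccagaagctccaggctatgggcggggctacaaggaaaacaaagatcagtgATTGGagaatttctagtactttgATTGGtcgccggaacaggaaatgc
Psme2: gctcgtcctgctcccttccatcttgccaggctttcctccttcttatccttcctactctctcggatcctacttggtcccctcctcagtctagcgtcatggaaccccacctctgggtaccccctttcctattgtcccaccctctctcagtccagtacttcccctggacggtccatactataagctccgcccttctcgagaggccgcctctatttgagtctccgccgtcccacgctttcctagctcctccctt

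RefSeq gave a window for 33 of the 40 members. The antioxidant response core stood at bases -47 to -39 in Psmb5 and at -9 to -1 in Psmb6, counted back from the start, and it was found in 5 of 33 members (15.2%) against 11.5% of all 27025 genes with a window. The 3 CCAAT boxes of Psmd10 began at bases -230, -47 and -24, and CCAAT was found in 36.4% of the members and 37.5% of all genes. An ETS motif, CCGGAAG, was found in 11 of 33 members (33.3%) against 7.83% of all genes, but in none of the 5 windows printed. The kappaB motif was found in 18.2% of the members and 8.23% of all genes, the interferon element GAAANNGAA in 9.09% and 8.18%, and the gamma-interferon element TTCNNNGAA in none and 8.13%. Both strands were searched for each motif, and the matches in the printed windows did not overlap each other. The printed window of Psmb10 and both windows of Psme2 held none of the 6 motifs. A match describes the letters of these windows and is no evidence of binding.

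Per length, the constitutive proteasome was expressed over a wide range, from 269 ± 55.3 CPM per kb for Psmb2 to 6.85 ± 1.41 for Psmd5 and 1.05 ± 0.451 for Psma8 (mean ± SD over the 4 sums). The length is that of all merged exons of a gene, which exceeds that of a single transcript for genes with many annotated exons. Psmb2 was followed by Psmb6 (258 ± 78.1 CPM per kb), the lid subunit Psmd8 (193 ± 30.7), Psmb5 (179 ± 57.9) and Psma6 (162 ± 40.8). At the low end above Psma8 were Psmd5, Psmd9 (7.08 ± 0.902 CPM per kb), Psme4 (8.36 ± 1.22) and Psmd11 (9.79 ± 1.42). Neighbours in this order were mostly not separable, since the ranges over the 4 sums overlapped for 38 of 39 pairs of neighbours. The exception was the step from Psmd5 to Psma8, which was found in few cells. Of the catalytic subunits of the constitutive core, Psmb7 was the lowest with 22.96 ± 7.83 CPM per kb. Its gene shares 11.8% of its exon bases with Nek6 on the other strand, which counting without strand cannot separate.

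**Figure D1:**
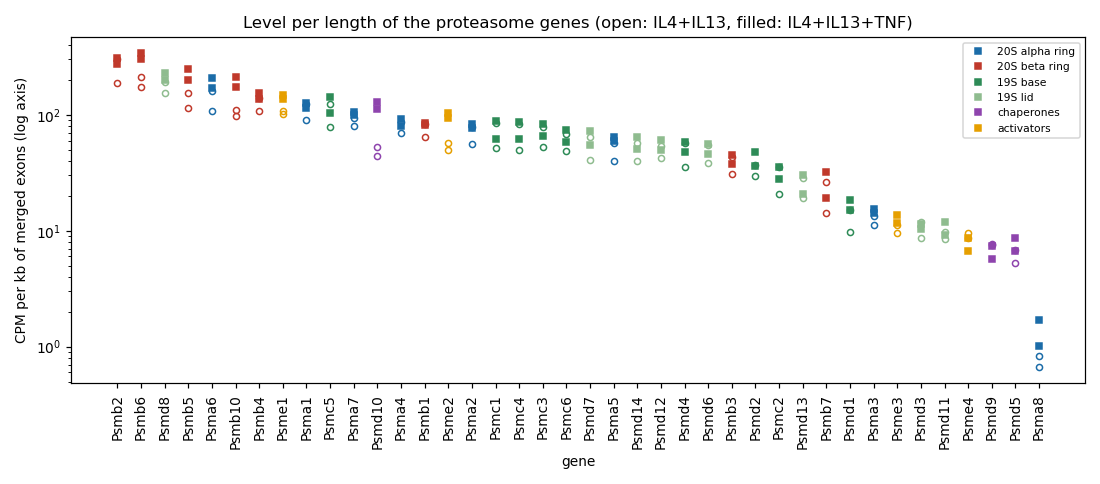
Level per length of the 40 members in CPM per kb of merged exons (log axis), ordered by the mean of the 4 sums and coloured by role; open symbols are the 2 mice with IL4+IL13 and filled symbols the 2 mice with IL4+IL13+TNF. Ranges of neighbours overlap along almost the whole order, and Psma8 stands apart at 1.05 CPM per kb.

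With TNF most members were at a slightly higher level, and a few stood out. The log2 fold change was above 0 for all 16 core and all 17 cap subunits in the edgeR fit, with a median over the 40 members of 0.24 against 0.0038 over the 17034 genes tested. With library size in place of TMM these medians were 0.15 and -0.089, and with limma on mean CPM per cell 0.16 and -0.053. In the 2 mice taken singly, 37 of 40 members were higher with TNF in both, a direction that 34.3% of all genes tested had, and Psmd9 and Psme4 were lower in both (32.4% of all genes). For 14 members both TNF sums lay above both IL4+IL13 sums (18.6% of all genes), and for Psmd9 both lay below (17.9%). The members shared libraries and are not independent of each other.

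No member passed the quasi-likelihood test of edgeR, adjusted by Benjamini-Hochberg, with treatment as the only term, which called 0.00587% of genes, that is 1 of 17034, the C-type lectin receptor gene Clec4e. 6 members had an unadjusted p under 0.05 in this fit, against 8.1% of all genes. With the mouse as a block the same test called 651 genes (3.82%), of which 331 were higher with TNF (1.94%). It called 5 members, all of them higher with TNF: Psmd10, Psmb10, Psmb6, Psmb5 and Psme2. On counts simulated with no difference between mice, the blocked fit made more false calls than its threshold allows. The fit without the block stayed near that threshold. How often the blocked fit makes false calls on sums that differ between mice, as these do, was not tested. Calls made with the block alone (Psmb5 and Psmb6) rest on that fit only and stay unsure. DESeq2 without a block called 3.51% of genes and 3 members, Psmd10, Psme2 and Psmb10. The same mouse gave cells to both treatments on the same plates, which is why the blocked values are given beside the others. Each plate held the treatments in separate rows, so that position on the plate and treatment cannot be told apart, and in such relative values more RNA of a gene per cell cannot be told apart from less RNA of other genes.

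**Figure D2:**
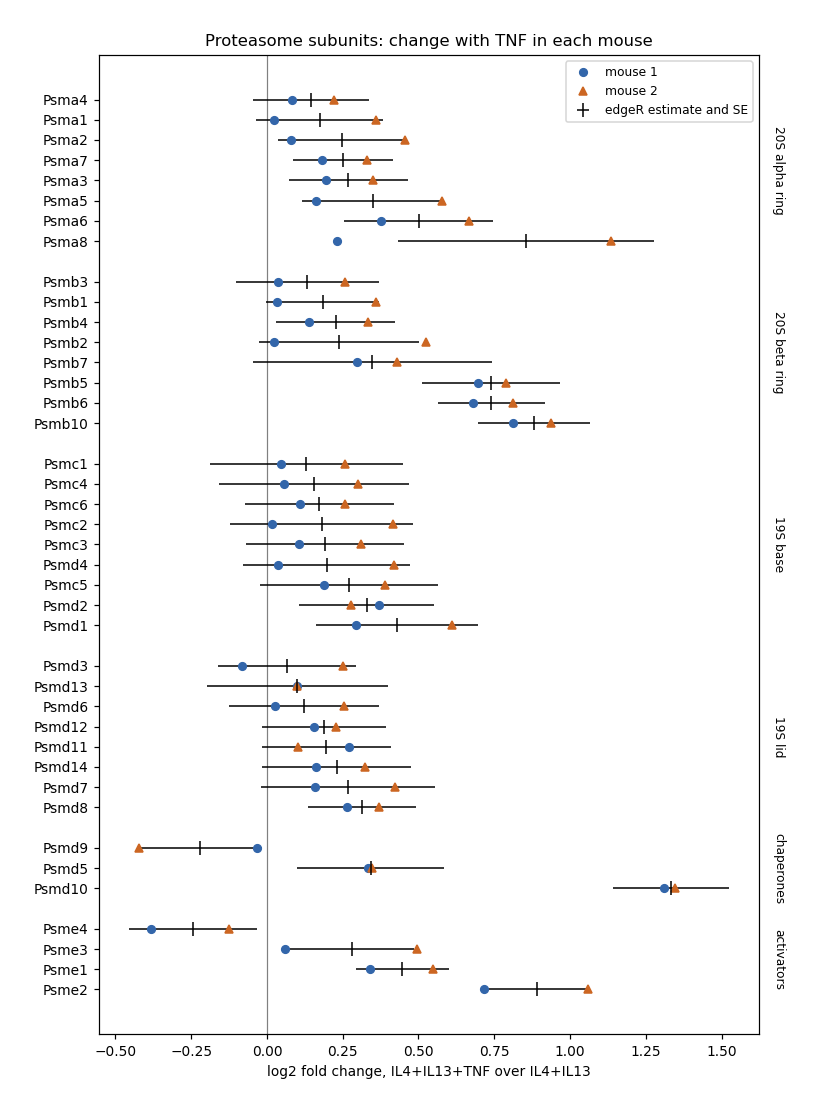
Log2 fold change of each member, IL4+IL13+TNF over IL4+IL13, by role. Points are the 2 mice (CPM with 0.5 added). Ticks with bars are the edgeR estimate without the block and a standard error derived from its F statistic. Psmd10 lies furthest to the right, Psme2, Psmb10, Psmb6 and Psmb5 follow and lie right of the remaining members in both mice except for Psma8, which is far right in mouse 2 alone, and Psmd9 and Psme4 lie left of 0.

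The size of the difference varied between the mice. The median log2 fold change of the members was 0.16 in mouse 1 and 0.36 in mouse 2, and 37 of 40 members had the larger value in mouse 2. With IL4+IL13 alone, 37 members were higher in mouse 1 than in mouse 2, with a median log2 ratio of 0.44, against 0.0022 over all genes, and under TNF 34 were, with a median of 0.26. The IL4+IL13 sum of mouse 2 was thus the low one of the 4. Its cells also had the highest median mitochondrial percentage (3.75% against 2.77% to 3.29% in the other sums), the highest spike-in percentage (0.0675% against 0.0413% to 0.0549%) and the fewest detected genes (7431 against 7859 to 8161). In each mouse TNF cells had a lower mitochondrial percentage and more detected genes than IL4+IL13 cells, and the part of these measures in the difference was not tested. Without this sum the median of the members was 0.019, near the 0.018 of all genes, and without the IL4+IL13 sum of mouse 1 it was 0.50. By plate the median was 0.031 and 0.12 on the plates of mouse 1 (plates 2 and 3) and 0.27 and 0.31 on those of mouse 2 (plates 4 and 5), with 21, 34, 35 and 37 members above 0. 15 members were higher with TNF on all 4 plates and 1 member, Psme4, was lower on all 4. Directions by plate were not counted over all genes, so these counts have no background to be read against.

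The alpha ring of the core forms the gate to the barrel. All 8 alpha genes were higher with TNF in both mice, with log2 fold changes from 0.15 for Psma4 to 0.86 for Psma8, and none passed edgeR's test with or without the block. The level of Psma6, the second highest of the ring by fold, was 197 and 134 CPM with IL4+IL13, against 255 and 212 CPM under TNF (mouse 1 and mouse 2). Both TNF sums of Psma6 lay above both IL4+IL13 sums, and its log2 fold change was 0.50 ± 0.25 (SE). Psma8 was at 2.08 and 1.65 CPM with IL4+IL13, against 2.53 and 4.22 CPM under TNF. At equal depth it had a fragment in 5.12% and 2.59% of cells without TNF, against 5.28% and 5.56% under TNF, so that its estimate of 0.86 ± 0.42 rests on few cells.

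The beta ring held 3 of the 5 members called with the block, and they include 2 of the 3 catalytic subunits of the constitutive core. Psmb5, the subunit cutting after hydrophobic residues, was at 138 and 103 CPM with IL4+IL13, against 224 and 179 CPM under TNF. Both TNF sums were above both IL4+IL13 sums, the difference was similar in the mice (0.70 and 0.79), and the log2 fold change was 0.74 ± 0.23 (SE; adjusted p = 0.491 by the quasi-likelihood test of edgeR after Benjamini-Hochberg adjustment, 0.0282 with the block). Psmb6, the subunit cutting after acidic residues, was at 399 and 325 CPM with IL4+IL13, against 640 and 571 CPM under TNF. Its groups did not overlap either, and its log2 fold change was 0.74 ± 0.18 (adjusted p = 0.359 by edgeR, 0.0218 with the block). Its processed copy Psmb6-ps2 was at 39.3 and 29.8 CPM with IL4+IL13, against 61.5 and 54.1 CPM under TNF, and Psmb6 held 91.0% to 91.6% of the fragments of the pair in every sum.

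Psmb7, the third catalytic subunit, cuts after basic residues. Its level was 89.4 and 48.8 CPM with IL4+IL13, against 110 and 65.9 CPM under TNF, so that the mice differed more than the treatments. The groups overlapped, and its log2 fold change was 0.35 ± 0.39 (SE without the block, adjusted p = 0.920 by edgeR and 0.155 with the block). That SE includes the gap between the mice, and with the block it was 0.11. Within the mice the log2 fold changes were 0.30 and 0.43, and Psmb7 was higher with TNF on all 4 plates. Whether Psmb7 differed from Psmb5 and Psmb6 in its response was not tested. The immunoproteasome subunit that takes the place of Psmb7 is Psmb10, which was at 167 and 189 CPM with IL4+IL13, against 294 and 362 CPM under TNF. Unlike most members Psmb10 was higher in mouse 2 under both treatments, and its log2 fold change was 0.88 ± 0.18 (adjusted p = 0.304 by edgeR, 0.0187 with the block, 0.0197 by DESeq2). The 4 structural beta genes, Psmb1, Psmb2, Psmb3 and Psmb4, were higher with TNF in both mice by less, with log2 fold changes from 0.13 for Psmb3 to 0.24 for Psmb2, and their groups overlapped.

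**Figure D3:**
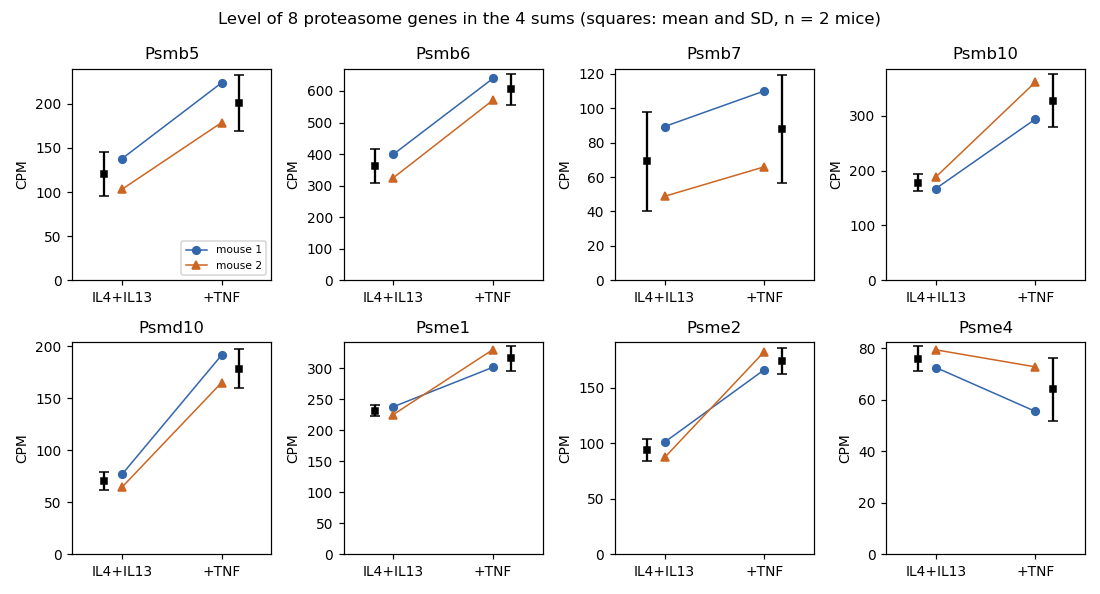
Level of 8 members in CPM in each of the 4 sums; lines join the 2 treatments of a mouse, and squares with bars are the mean and SD of the 2 mice. For Psmb5, Psmb6, Psmb10, Psmd10, Psme1 and Psme2 both TNF sums lie above both IL4+IL13 sums, for Psmb7 the mice lie further apart than the treatments, and Psme4 is lower with TNF in both mice.

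The base of the 19S cap holds the ATPases Psmc1 to Psmc6, which unfold the substrate, and the subunits Psmd1, Psmd2 and Psmd4, which hold or receive ubiquitinated proteins. All 9 were higher with TNF in both mice and none passed edgeR's test in either fit. Their log2 fold changes ran from 0.13 for Psmc1 to 0.43 for Psmd1, with a median of 0.19. Psmd1 was the only gene of the base without overlap, at 109 and 71.4 CPM with IL4+IL13, against 134 and 109 CPM under TNF, and its lower TNF sum was only just above its higher IL4+IL13 sum.

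The lid carries the deubiquitinase Psmd14. None of its 8 genes passed edgeR's test in either fit, and 7 were higher with TNF in both mice, with a median log2 fold change of 0.19. Psmd14 was at 161 and 114 CPM with IL4+IL13, against 181 and 142 CPM under TNF, and its groups overlapped. Psmd8, the member with the highest CPM in the lid, was at 583 and 471 CPM with IL4+IL13, against 700 and 609 CPM under TNF. It was the only lid gene whose groups did not overlap, with a log2 fold change of 0.31 ± 0.18 (SE). 3 of the 5 members with the lowest log2 fold change were lid genes: Psmd3 (0.067 ± 0.23), Psmd13 (0.10 ± 0.30) and Psmd6 (0.12 ± 0.25). Psmd3 moved in opposite directions in the mice and was at 59.6 and 43.4 CPM with IL4+IL13, against 56.3 and 51.6 CPM under TNF. Psmd13 shares 10.1% of its exon bases with Sirt3 on the other strand.

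Core against cap was compared as the difference of their mean log2 fold changes. The mean was 0.39 for the 16 core genes and 0.21 for the 17 cap genes, a difference of 0.18. It was 0.12 in mouse 1 and 0.22 in mouse 2, which gives 0.17 ± 0.073 (SD, n = 2), and on the 4 plates it was 0.11, 0.12, 0.31 and 0.11. With all 16 core genes its sign was thus the same in both mice and on every plate, whereas its size rested on few genes. On plate 2 the core mean was 0.082 and the cap mean -0.024, while Psmb5, Psmb6 and Psmb10 had 0.68, 0.49 and 0.55. On that plate the sign, too, rested on these genes. Without Psmb5, Psmb6 and Psmb10 the difference over the 4 sums was 0.094, with Psma8 (0.86, found in few cells) still among the core genes. As a difference of medians over all core and cap genes it was 0.069. For 8 of 16 core genes and 2 of 17 cap genes both TNF sums lay above both IL4+IL13 sums, against 18.6% of all genes. For no core or cap gene did both lie below, against 17.9% of all genes. These counts set the pairing by mouse aside and depend on the gap between the mice, which was wider for the cap. The median log2 ratio of mouse 1 to mouse 2 was 0.40 for core and 0.56 for cap genes with IL4+IL13. Under TNF it was 0.15 and 0.36. Within the mice, 16 of 16 core and 16 of 17 cap genes were higher with TNF in both (34.3% of all genes). An exact permutation test of 2 sums against 2 cannot give a two-sided p below 0.333, so no p is given.

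The 3 chaperones of the base differed among themselves. Psmd10, which is known to bind the ATPase Psmc4 during assembly, had the largest log2 fold change of the 40 members. It was at 76.7 and 64.4 CPM with IL4+IL13, against 191 and 165 CPM under TNF. The TNF sums were far above the others in both mice (log2 fold changes of 1.31 and 1.35), and the estimate was 1.33 ± 0.19 (SE; adjusted p = 0.201 by edgeR, 0.0087 with the block, 1.86e-05 by DESeq2). On single plates it was 0.95, 1.478, 1.28 and 1.23. At equal depth Psmd10 had a fragment in 80.7% and 63.1% of cells without TNF, against 95.7% and 90.8% under TNF, and 80.4% and 84.5% of the TNF cells lay above the median IL4+IL13 cell of their mouse. Psmd5 was higher with TNF in both mice with 0.34 ± 0.24 and overlapping groups. Psmd9 was at 54.4 and 56.1 CPM with IL4+IL13, against 53.1 and 41.7 CPM under TNF, which gave -0.22 ± 0.20 and came mostly from mouse 2.

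Of the activators, Psme1 and Psme2 form PA28 alpha-beta, which opens the core and is known for its part in class I peptide production. Psme2 was at 101 and 87.2 CPM with IL4+IL13, against 166 and 182 CPM under TNF. The groups did not overlap, and the log2 fold change was 0.89 ± 0.17 (SE; adjusted p = 0.279 by edgeR, 0.0308 with the block, 0.01 by DESeq2). Psme2 has a near-identical intronless copy, Psme2b, to which more fragments were assigned than to Psme2 itself, so the level of each is uncertain. Psme2b was at 306 and 276 CPM with IL4+IL13, against 479 and 519 CPM under TNF. Summed, the pair was at 407 and 363 CPM against 646 and 702 CPM, with log2 fold changes of 0.67 and 0.95 in the mice, and Psme2 held 24.01% to 26.0% of the fragments of the pair in every sum.

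Psme1 was at 238 and 225 CPM with IL4+IL13, against 301 and 330 CPM under TNF. Its groups did not overlap, but it passed neither fit (log2 fold change 0.45 ± 0.15 (SE), adjusted p = 0.543 by edgeR and 0.0895 with the block). Psme3, the nuclear PA28 gamma, was at 33.0 and 28.2 CPM with IL4+IL13, against 34.4 and 39.9 CPM under TNF (0.28 ± 0.21). Psme4, which codes for PA200, was the lowest member by fold, at 72.6 and 79.5 CPM with IL4+IL13, against 55.5 and 72.8 CPM under TNF. Its groups overlapped by a narrow margin and its log2 fold change was -0.24 ± 0.21.

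Of 35 further genes of the pathway, taken as 6 lists, 34 were tested. Paaf1, an assembly factor of the base, is the one that was not. None of the 34 passed edgeR's test without the block (0.00587% of all genes), 2 passed with it (3.82%) and 1, Tapbp, by DESeq2 (3.51%), and the median log2 fold change was 0.18. Both genes called with the block belong to the 7 of class I processing: Tapbp, the peptide-loading factor tapasin, at 350 and 429 CPM with IL4+IL13, against 668 and 759 CPM under TNF (0.87, adjusted p = 0.292 by edgeR and 0.0145 with the block), and B2m, the class I light chain (0.45, adjusted p = 0.413 by edgeR and 0.0154 with the block). The immunoproteasome subunit Psmb8 was at 360 and 316 CPM with IL4+IL13, against 447 and 471 CPM under TNF, and Psmb9 at 115 and 121 CPM against 117 and 137 CPM. The log2 fold changes were 0.44 for Psmb8 and 0.11 for Psmb9, with overlapping groups for Psmb9 only, and neither passed with or without the block.

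No gene of the other lists passed. Pomp, which matures the beta ring, was at 306 and 251 CPM with IL4+IL13, against 372 and 342 CPM under TNF (0.36), and 5 of the 6 assembly and inhibitor genes tested were higher in both mice. The transcription factors Nfe2l1 and Nfe2l2 had log2 fold changes of 0.27 and 0.47, with groups that did not overlap. Ngly1, listed with them, had 0.28, with both TNF sums above both IL4+IL13 sums. Ddi2, the protease that activates Nfe2l1, had -0.59, with both TNF sums below both IL4+IL13 sums. Of the cap subunits outside the symbol pattern, Adrm1 had 0.22 with overlapping groups, and Sem1 had -0.13 with both TNF sums below the others. Of 13 genes for ubiquitin and shuttle factors, 8 were higher and 1 lower in both mice, and of the 2 deubiquitinases at the cap, 1 was higher in both. Of all genes tested, 34.3% were higher and 32.4% lower in both mice, which is the background for these counts and for the assembly list.

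Taken as a share of all fragments, the 40 members held 0.712% and 0.544% with IL4+IL13, against 0.786% and 0.702% under TNF. The share was higher with TNF in both mice, and the 2 groups overlapped, since the IL4+IL13 sum of mouse 1 lay above the TNF sum of mouse 2. The log2 ratio within a plate was 0.063 and 0.22 for mouse 1 and 0.35 and 0.38 for mouse 2. For the core it was between 0.069 and 0.44 and for the cap between 0.0044 and 0.28. Cells of both treatments covered a common range, and 72.0% of TNF cells in mouse 1 and 84.0% in mouse 2 lay above the median IL4+IL13 cell of the same mouse. At equal depth the median member was found in a share of cells that was 1.10 percentage points higher with TNF in mouse 1 and 4.81 in mouse 2.

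Other groups of genes were higher or lower with TNF. 94 genes of oxidative phosphorylation held 1.74% and 1.53% of fragments with IL4+IL13, against 1.90% and 1.90% under TNF. 10 genes of S phase held 0.0983% and 0.0429% against 0.0649% and 0.0331%, and 8 genes of G2/M 0.0975% and 0.0748% against 0.0429% and 0.0299%, so that the cycling signal was lower with TNF in both mice and lower in mouse 2 under both treatments. The part of cycling and of mitochondrial genes in the proteasome values was not tested.

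**Figure D4:**
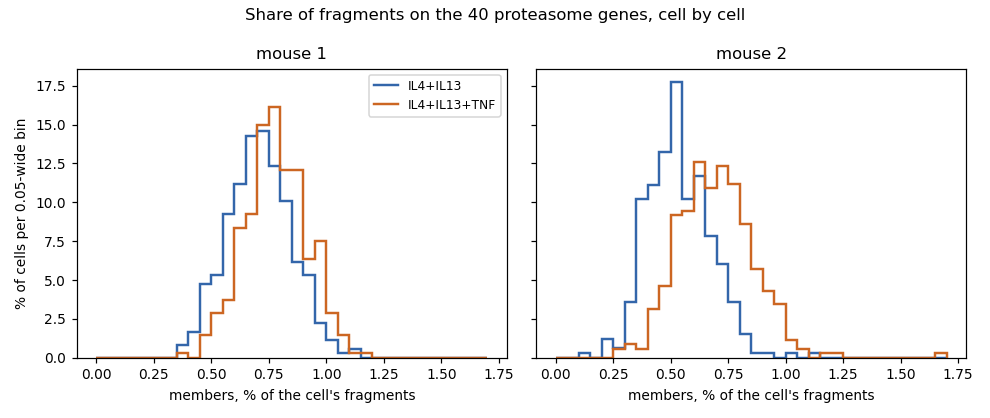
Distribution over cells of the share of a cell's fragments on the 40 members (% of fragments, in bins 0.05 wide; y axis, % of the cells of that mouse and treatment). The TNF cells lie to the right of the IL4+IL13 cells in both mice, with wide overlap, and the shift is larger in mouse 2, where the medians are 0.525% and 0.690%.

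Across cells, members varied together only weakly. Every cell was thinned to 339000 fragments, and Spearman's rho was computed within each mouse and treatment (303 to 332 cells) for the 741 pairs of the 39 members found in at least 50% of cells. The median rho was 0.073 and 0.054 in IL4+IL13 cells and 0.065 and 0.079 in TNF cells, and 82.3% to 85.6% of pairs were above 0. Pairs of a member and another gene had medians of 0.012 to 0.016 over 6517 other genes, and pairs of such other genes 0.0074 to 0.0096. Of the pairs of other genes, 76.9% to 85.2% lay below the median of the member pairs, and the rest did not. Cells of a set share a mouse, plates and a treatment, and such weak correlations in sparse counts are a description only.

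Within the complex, the median rho was 0.083 to 0.12 for pairs of core genes, 0.063 to 0.088 for pairs of cap genes and 0.057 to 0.089 between core and cap. The ranges over the 4 sets overlapped, so core and cap could not be ordered. The summed core and summed cap of a cell correlated with rho between 0.32 and 0.52. The highest pair was not between neighbours in the ring but between Psmb10 and Psme2 (mean rho 0.25, from 0.15 to 0.37 over the 4 sets), and Psmb10 and Psme1 (0.18) and Psme1 and Psme2 (0.20) were also among the 4 highest. The other pair among these was Psmb6 with Psmd8 (0.21). The ranges of these pairs over the 4 sets overlapped that of the next pair, Psma3 with Psme2 (0.18, from 0.11 to 0.21). Psme2 also went with the other members, with a median rho of 0.094, so these pairs do not stand apart as a group. With the other members Psmb10 had a median rho of 0.046 and Psmd10 of 0.029, whereas Psmc1 had 0.11 and Psmb2 0.10. Psme4 was the only member with a median below 0 in all 4 sets (mean -0.014), and its lowest pair was with Psmb5 (-0.078).

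**Figure D5:**
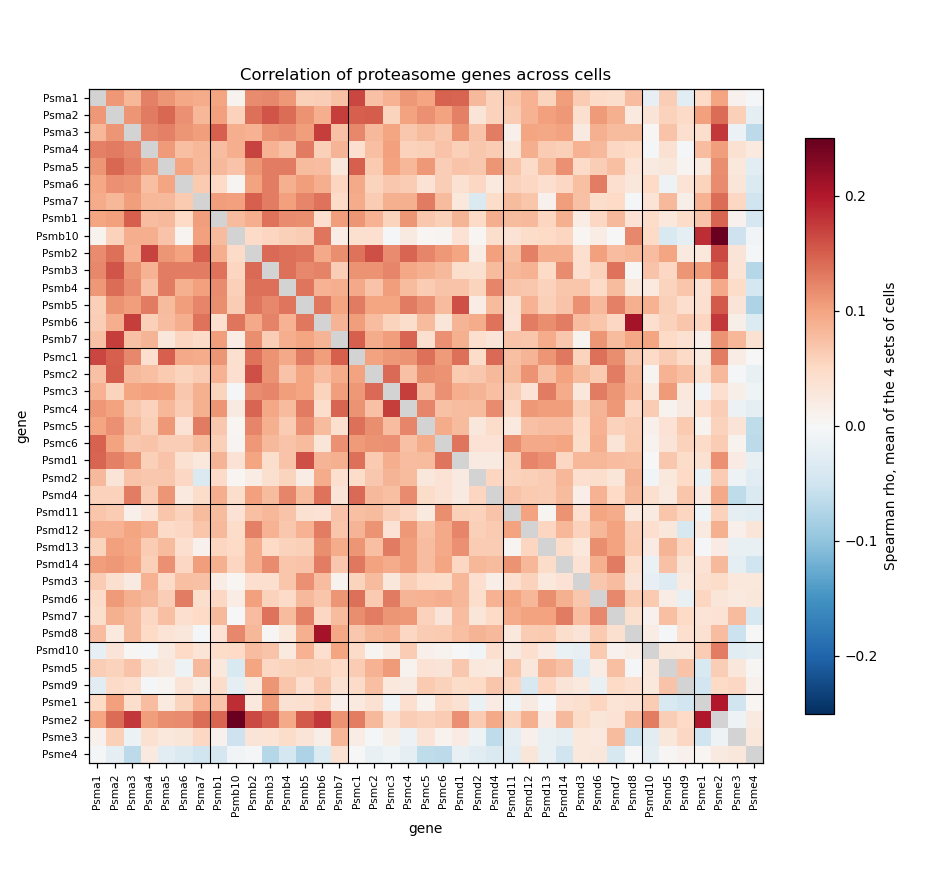
Spearman's rho between 39 members across cells at equal depth, as the mean over the 4 combinations of mouse and treatment; lines separate the roles and grey marks a gene with itself. Most cells of the grid are weakly positive, the darkest is Psmb10 with Psme2 at 0.25, and the row of Psme4 is mostly below 0.

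As a summed share per cell, the members went with Psmb8 and Psmb9 (rho 0.27 to 0.49 over the 4 sets) and with oxidative phosphorylation (0.29 to 0.50), and against the mitochondrial percentage (-0.38 to -0.17). With 6 genes of the integrated stress response rho was 0.15 to 0.30, and with the number of detected genes 0.098 to 0.22. With S phase it was 0.22 and 0.15 in cells with IL4+IL13 and -0.046 and 0.0087 in TNF cells. Shares of one total are tied to each other, so these values are descriptions as well.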

How the data were processed

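Smart-seq2 counts of single BMDMs from 2 mice were analysed; the other experiments of the study were not used here. The authors deposited 1 table of raw counts of fragments per gene and well, with no normalization: the alignment (gsnap, mm10) kept unique hits, and featureCounts 1.6.3 assigned them to Ensembl 98 genes without using strand. PCR copies are counted. The 92 spike-in rows were left out, and 8 columns with names outside the sample labels stayed unused. Symbols matched 55154 of 55421 genes.

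Wells were dropped where the log total or log number of genes was low, or the mitochondrial or spike-in percentage high, by more than 3 scaled median absolute deviations within a plate (138 wells). Counts were summed by mouse and treatment and compared with edgeR 4.0.16 (quasi-likelihood test, TMM, Benjamini-Hochberg over 17034 genes, threshold 0.05) in R 4.3.3. The SE of a log2 fold change is its absolute value divided by the square root of the F statistic of this test. Unless the block is named, it is that of the fit without the block. Alternatives were the mouse as a block, DESeq2 1.42.0, library size scaling, no gene filter, other cell filters and each sum left out. Another was limma 3.58.1 on log2(mean CPM + 1), with CPM first averaged over the cells of 1 mouse and treatment. The 2 edgeR fits were checked on data simulated with no difference between mice. There the fit without the block kept false calls near the threshold and the blocked fit did not. Both missed most genes with a log2 fold change of 1, the fit without the block more of them. DESeq2 was not checked in this way. Samples are paired by mouse, which is read from a replicate number in the sample titles that both treatments of a plate share. The deviations of the paired sums had r = 0.562 over 17034 genes. The paper describes 2 independent experiments, so mouse, experiment and pair of plates cannot be told apart. No separate cultures are named, so p-values measure the spread between these sums. Co-variation used cells thinned to 339000 fragments, which left 1250 cells. Python 3.11.15 was used for shares, correlations and plots.

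The members and lists were chosen with earlier results of these data known. Genes given in full are the catalytic subunits with Psmb10, the activators, the 5 members with the highest and the 5 with the lowest log2 fold change and any called with or without the block; Psma6, Psmd1, Psmd5, Psmd8 and Psmd14 were added after their values were seen. Of other pathway genes, Psmb8, Psmb9, Nfe2l1, Nfe2l2, Pomp, Adrm1, Sem1 and any called were named by rule, and Ddi2 and Ngly1 were added.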

Additional observations from a re-analysis of the deposited data

How the results depend on the processing

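No member was called in the main edgeR fit or in any fit but those with the mouse as a replicate block (5 members, and 2 of the other pathway genes) and DESeq2 (3 members and 1 pathway gene). The block changed no other call of a gene named in the text beside Psme2b and Psmb6-ps2, which also passed with it. Leaving out 1 sum in turn, with the lone sum assumed to vary like the other treatment, called no member and no pathway gene (each of the 4 fits), and moved the median log2 fold change of the members between 0.019 and 0.50 and the core minus cap difference between 0.068 and 0.31. That difference was 0.069 as a difference of medians and 0.094 without Psmb5, Psmb6 and Psmb10, both chosen after seeing the data; without Psmb10 or Psma8 and under the other fits it moved by less than the spread between the mice. The median rho of member pairs was 0.081 for members found in at least 80% of cells. The median of the members was 0.15 with library size and 0.16 with limma on mean CPM, each over 1.5 times below the value of 0.24, while all genes were at -0.089 and -0.053. With library size in place of TMM, Psmd3 had a log2 fold change of -0.024. With 1 sum left out, the lowest and highest values were -0.068 and 0.84 for Psmb7, -0.14 and 0.31 for Psmd3, -0.21 and 0.41 for Psmd13, -0.12 and 0.41 for Psmd6, and -0.013 and 0.22 for Psmb9. The cause of these changes was not tested. Depth limits Psma8 most, which had a fragment in few cells, and 2 mice per treatment limit every test.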

Other observations

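3 wells carried the IL4+IL13 label without a mouse and were put in no group, and 1 more such sample had no column. They held 279461, 354874 and 87198 fragments, the members took 0.442%, 0.357% and 0.299% of these, and 40, 38 and 34 members had a fragment.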
